A study of Homo sapiens with 12 samples.

Results

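The inflammatory chemokine and cytokine genes CXCL1, CXCL2, CXCL3, CXCL5, CXCL8, CCL2, CCL20, IL6, IL1B and LIF were examined in HA22T and PLC5 cells, both established human hepatocellular carcinoma lines, after knockdown of GALNT1, which encodes an enzyme that starts mucin-type O-glycosylation. They were chosen by name as 10 of the 20503 genes with a named probe, and 13 of the 50599 probes measured them. Each line was transfected with 10 nM non-targeting siRNA (siControl) or a pool of GALNT1 siRNAs (siGALNT1), and total RNA was taken after 48 h and hybridized to Agilent one-color arrays. There were 3 arrays in each of the 4 groups, HA22T siControl, HA22T siGALNT1, PLC5 siControl and PLC5 siGALNT1, and 12 arrays in all. No untransfected cells were among them, so the siControl groups are the only background. The sources used here do not say whether the arrays of a group came from separate cultures, so p-values measure the spread between arrays, which may be technical. In bulk RNA, fewer cells that express a gene and less of its RNA per cell cannot be told apart.

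CXCL1, CXCL2, CXCL3, CXCL5 and CXCL8 are chemokines that attract neutrophils through the receptor CXCR2, and CXCL8 also acts through CXCR1. CCL2 attracts monocytes through CCR2, and CCL20 attracts lymphocytes and dendritic cells through CCR6. IL6 and LIF signal through the shared receptor subunit IL6ST to STAT3, which in hepatocytes drives acute phase proteins, and IL1B is a cytokine that is made as a precursor and cut by caspase-1. Transcription of most of these genes is induced by NF-κB, and their mRNAs are short-lived.

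All values are log2 signals relative to the 75th percentile of all probes on the same array, so a value of 0 lies at that percentile and a difference of 1 is a change of 2-fold. A probe was well above background where the scanner software had flagged it so. A difference passed the test where limma's p-value, adjusted by Benjamini-Hochberg over all counted probes, was below 0.05, and error terms are the SD over the 3 arrays of a group or the SE of the fit. Where several probes measured a gene, its values are those of the brightest one. The arrays had between 36679 and 48873 of 58717 spots well above background, and replicates correlated at 0.968 to 0.988. In HA22T, the mean GALNT1 level was 1.33 ± 0.22 under siControl and -3.65 ± 1.33 under siGALNT1 (SD, n = 3 each). In PLC5, it was 0.81 ± 0.32 and -2.88 ± 1.05. Its log2 difference was -4.98 (SE 0.63) in HA22T and -3.70 (SE 0.63) in PLC5, and the arrays of siControl and siGALNT1 did not overlap in either line. The adjusted p of this probe was 0.116 in HA22T and 1 in PLC5, and that of the dimmer GALNT1 probe in HA22T was 0.0457. The 6 HA22T arrays and the 2 PLC5 arrays numbered 1 lay on the same slide, and the other 4 PLC5 arrays on another, so line and slide partly coincide. Of 10 hepatocyte markers, 8 were higher in PLC5 under either siRNA, with a summed linear level of 8.43 to 12.5 on the HA22T arrays and 111 to 208 on the PLC5 arrays. Of 7 mesenchymal markers 6 had a probe, with a summed level of 65.4 to 101 in HA22T and 1.04 to 2.68 in PLC5, where ACTA2 and COL1A2 were not well above background on any array. That sum mainly follows VIM, with means of 6.28 and 6.43 in HA22T and 0.58 and 0.69 in PLC5. Of 4 counted mesenchymal markers 3 were lower in PLC5, and DCN was similar, with means of -3.86 and -3.24 in HA22T and -3.65 and -3.36 in PLC5. Of 7 immune markers 6 had a probe, with a summed level of 30.3 to 91.7 in HA22T and 25 to 57.2 in PLC5, and the signal labelled PTPRC was bright in every group, with means of 5.00 to 6.09. The 3 endothelial markers summed to 0.551 to 0.894 in HA22T and 4.84 to 6.74 in PLC5, where only PECAM1 was higher. CDH5 and VWF did not pass. Their log2 differences, PLC5 minus HA22T, were 0.16 and -0.09 under siControl and -0.22 and 0.16 under siGALNT1. The part of all these markers in the results was not tested.

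RefSeq windows of 300 bases, from 250 before to 50 after the start of transcription in GRCh38.p14, were found for 8 of the members, all but CCL2 and LIF. The letters GGNNTTTCC, which many NF-κB sites share, stood in 7 of these 8 windows on either strand, against 6.26% of 35116 such windows, and IL1B was the member without them. CXCL1, CXCL2 and CXCL3, which are close copies of each other, had 2 matches each, and CXCL5, CXCL8, CCL20 and IL6 had 1. A longer NF-κB consensus (5.91% of windows) was in those of CXCL1, CXCL2, CXCL3, CXCL5, CCL20 and IL6, but not of CXCL8 or IL1B. TATAAA (11.5% of windows) was in those of CXCL8 and CCL20. TGANTCA, the AP-1 letters (7.71% of windows), was in that of CXCL8 alone. These matches are letters and not sites shown to be used. Of the 8 members, those with a fitted difference of more than 2 log2 units between the lines have their windows printed. They run 5′ to 3′ on the strand of the gene, with GGNNTTTCC or its reverse complement in capitals. They are those of CXCL5 (chr4:73998628-73998927, minus strand), CXCL8 (chr4:73740319-73740618, plus strand), CCL20 (chr2:227813592-227813891, plus strand) and IL6 (chr7:22726950-22727249, plus strand). The difference of CXCL8 did not pass the test. It was 1.70 under siControl and 1.13 under siGALNT1 without the HA22T arrays numbered 1, which were not well above background.
CXCL5: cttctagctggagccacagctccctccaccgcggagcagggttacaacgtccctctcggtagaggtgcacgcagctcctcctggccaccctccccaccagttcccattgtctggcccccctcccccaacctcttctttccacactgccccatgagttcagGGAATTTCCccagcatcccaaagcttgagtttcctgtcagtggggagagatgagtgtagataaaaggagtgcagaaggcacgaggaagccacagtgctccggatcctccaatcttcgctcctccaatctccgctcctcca
CXCL8: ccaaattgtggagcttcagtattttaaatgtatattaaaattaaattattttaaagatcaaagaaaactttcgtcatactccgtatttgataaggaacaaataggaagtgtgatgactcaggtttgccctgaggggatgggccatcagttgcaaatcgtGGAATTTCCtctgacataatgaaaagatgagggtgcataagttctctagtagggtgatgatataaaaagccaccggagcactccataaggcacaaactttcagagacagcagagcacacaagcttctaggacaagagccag
CCL20: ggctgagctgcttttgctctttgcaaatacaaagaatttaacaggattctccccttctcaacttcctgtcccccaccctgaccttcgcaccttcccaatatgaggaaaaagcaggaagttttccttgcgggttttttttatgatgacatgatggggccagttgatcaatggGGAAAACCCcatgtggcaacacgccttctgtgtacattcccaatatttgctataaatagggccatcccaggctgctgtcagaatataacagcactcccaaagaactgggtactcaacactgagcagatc
IL6: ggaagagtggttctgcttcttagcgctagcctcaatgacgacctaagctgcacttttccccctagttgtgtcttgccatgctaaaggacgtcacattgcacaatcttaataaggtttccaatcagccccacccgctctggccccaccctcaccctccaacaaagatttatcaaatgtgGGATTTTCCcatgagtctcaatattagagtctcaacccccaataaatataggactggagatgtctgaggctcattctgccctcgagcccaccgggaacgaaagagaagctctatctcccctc
The capitals run from -90 to -82 in CXCL5, from -91 to -83 in CXCL8, from -79 to -71 in CCL20, where they lie on the opposite strand, and from -72 to -64 in IL6, counted from the start of transcription as 1 with no position 0. Genes with this match lay on either side of the line comparison described next, as CXCL5, CXCL8 and CCL20 had higher means in PLC5 and IL6 in HA22T.

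The first question was at what level each line kept these genes. Of the 10 members, CCL20 and CXCL5 were higher in PLC5, IL6 and CCL2 were higher in HA22T, and the other 6 did not pass the test. The same 4 genes passed, in the same directions, in the siControl and in the siGALNT1 comparison, which share no array. Both came from the same fit with a shared estimate of the spread, and they share lines and slides, so they are not independent tests. Over all probes, 9185 of 39766 (23.1%) passed under siControl and 10085 of 39180 (25.7%) under siGALNT1. Over all genes, each read from 1 probe, 28.1% and 29.3% passed. The median log2 difference of the members was 0.26 and 0.08, beside -0.25 and -0.32 over all genes.

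**Figure D1:**
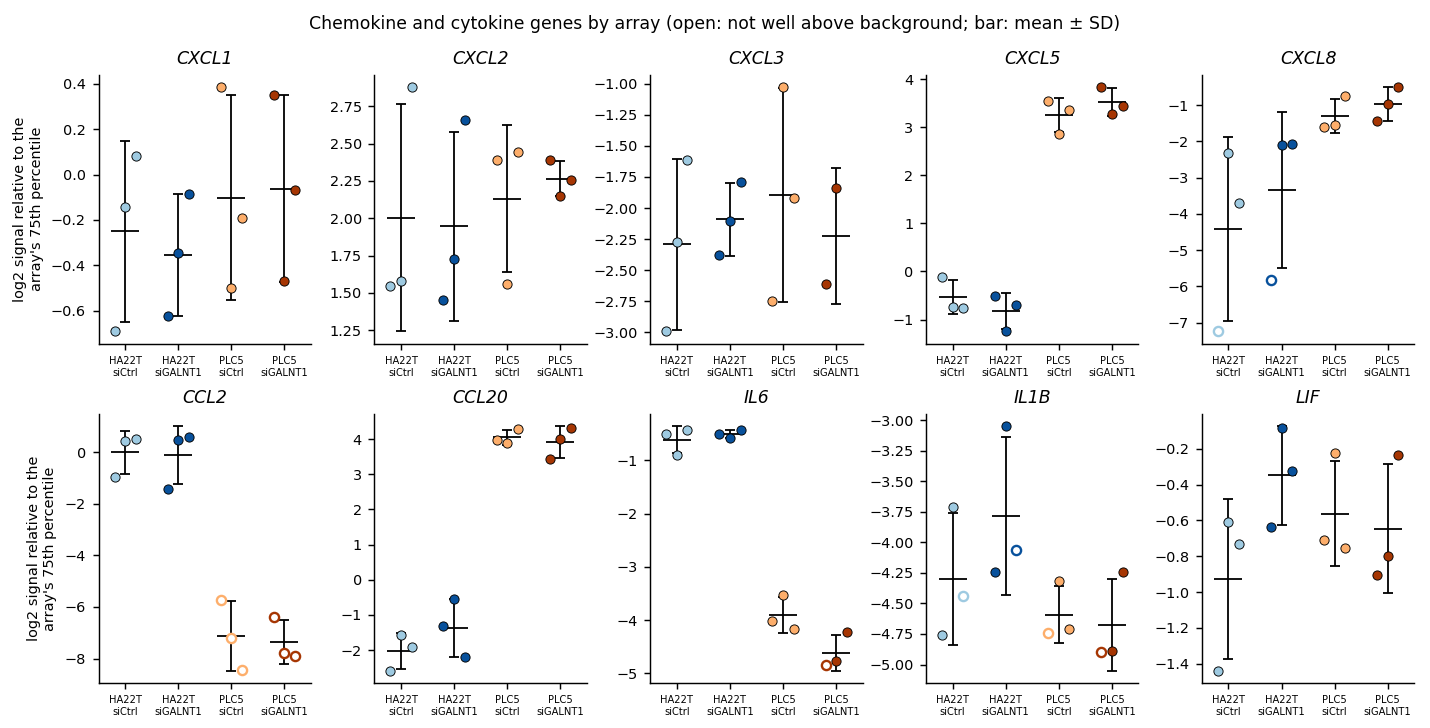
Log2 signal of each of the 10 genes on each array (y axis, relative to the 75th percentile of the array, with a range of its own in each panel) by group (x axis); points are arrays in the order of their numbers, open points were not well above background, and bars give the mean ± SD. CCL20 and CXCL5 sit higher on all PLC5 arrays, CCL2 and IL6 on all HA22T arrays, and CXCL3 has 2 arrays in PLC5 siGALNT1.

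CCL20 had the widest measured gap. Its values were -2.58, -1.57 and -1.91 in HA22T siControl and -1.33, -0.56 and -2.21 in HA22T siGALNT1. They were 3.96, 3.88 and 4.29 in PLC5 siControl and 3.44, 4.00 and 4.32 in PLC5 siGALNT1. Every PLC5 array thus lay above every HA22T array, and the probe was well above background on all 12. The log2 difference, PLC5 minus HA22T, was 6.06 (SE 0.43, adjusted p = 2.11e-06, limma) under siControl, a 66.9-fold higher level, and 5.28 (SE 0.43, adjusted p = 6.93e-06) under siGALNT1, a 38.9-fold higher level.

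CXCL5, a neutrophil chemokine, followed the same order. It was -0.12, -0.73 and -0.75 in HA22T siControl and -0.51, -1.25 and -0.71 in HA22T siGALNT1. It was 3.55, 2.86 and 3.36 in PLC5 siControl and 3.84, 3.28 and 3.44 in PLC5 siGALNT1. The lines did not overlap. The log2 difference was 3.79 (SE 0.31, adjusted p = 6.86e-06, limma) under siControl and 4.34 (SE 0.31, adjusted p = 2.95e-06) under siGALNT1, which is 13.9-fold and 20.3-fold higher in PLC5. Within each line the siControl and siGALNT1 arrays overlapped.

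IL6 ran the other way. It was -0.50, -0.90 and -0.43 in HA22T siControl and -0.51, -0.58 and -0.44 in HA22T siGALNT1. It was -4.02, -3.52 and -4.16 in PLC5 siControl and -4.84, -4.77 and -4.22 in PLC5 siGALNT1, where 2 of 3 arrays were well above background. All HA22T arrays lay above all PLC5 arrays, by a log2 difference, PLC5 minus HA22T, of -3.29 (SE 0.27, adjusted p = 7.58e-06, limma) under siControl and -4.10 (SE 0.27, adjusted p = 1.75e-06) under siGALNT1. The level in HA22T was 9.80-fold and 17.2-fold that in PLC5.

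CCL2, the monocyte chemokine, was measured in HA22T alone. It was -0.96, 0.45 and 0.50 in HA22T siControl and -1.43, 0.47 and 0.59 in HA22T siGALNT1, and its 10 spots per array were averaged. In PLC5 it was not well above background on any of the 6 arrays, with signals of -5.74 to -8.43, so only a bound is given. Set against the dimmest signals that were well above background, CCL2 was at least 41.7-fold higher in HA22T under siControl and at least 38.9-fold higher under siGALNT1. These bounds hold for this processing only. After normexp background correction the log2 difference, PLC5 minus HA22T, was smaller in size, at -4.50 and -4.31. The adjusted p of 4.67e-05 and 4.59e-05 (limma) belong to the fit of the dim PLC5 signals as read, and not to the bounds. The array numbered 1 was the lowest in both HA22T groups.

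**Figure D2:**
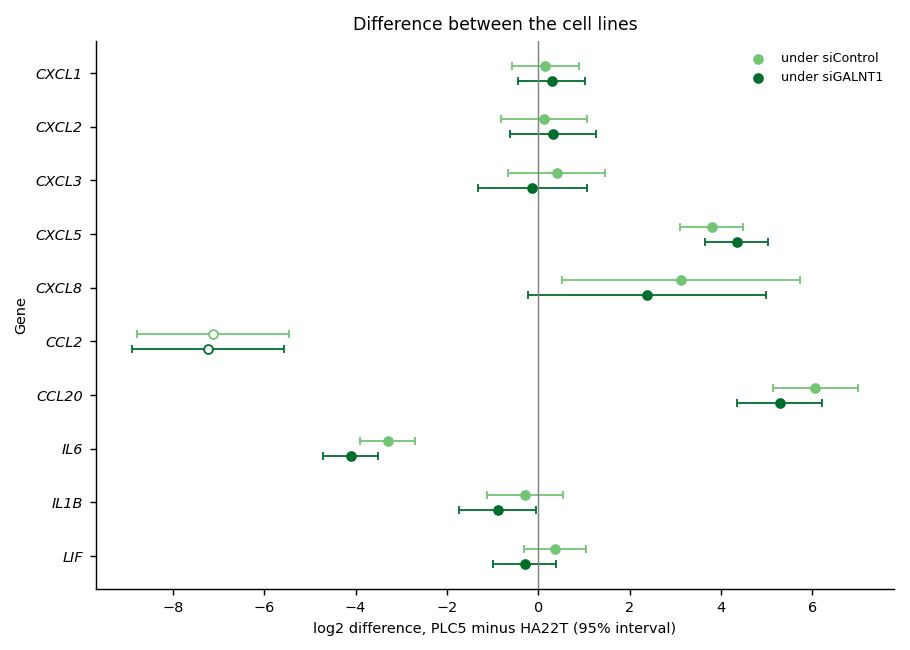
Fitted log2 difference, PLC5 minus HA22T, of each gene (x axis) with its 95% interval, under siControl (light) and siGALNT1 (dark); open points mark CCL2, which was not well above background in PLC5 and whose fold is given as a bound. The intervals of CXCL5 and CCL20 lie above 0 and those of CCL2 and IL6 below 0 under both siRNAs.

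As line and slide partly coincide, the line differences of these 4 genes were also fitted by slide. With slide as a block they were 5.78 and 5.00 for CCL20, 4.10 and 4.65 for CXCL5 and -3.47 and -4.28 for IL6, under siControl and siGALNT1. Within the slide that holds both lines, where each PLC5 group has 1 array, they were 5.98 and 4.80, 4.09 and 4.66, and -3.41 and -4.33. For CCL2, with its dim PLC5 signals as read, they were -5.94 and -6.06 with slide as a block and -5.74 and -6.26 within that slide. Without regard to slide, the CCL2 differences were -7.12 and -7.23. On that slide alone, the single array of each PLC5 group is assumed to vary like the others. All 4 passed in each of the 24 alternatives run for either comparison.

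CXCL8, the neutrophil chemokine also known as interleukin 8, had higher means in PLC5 but did not pass the test. It was -7.24, -2.31 and -3.70 in HA22T siControl and -5.83, -2.11 and -2.08 in HA22T siGALNT1. It was -1.60, -1.55 and -0.75 in PLC5 siControl and -1.43, -0.96 and -0.49 in PLC5 siGALNT1. Every PLC5 array lay above every HA22T array, and the HA22T arrays numbered 1 were not well above background. The log2 difference was 3.11 (SE 1.19, adjusted p = 0.0841, limma) under siControl and 2.38 (SE 1.19, adjusted p = 0.158) under siGALNT1. Without both HA22T arrays numbered 1, it was 1.70 (adjusted p = 0.0348) and 1.13 (adjusted p = 0.126). After normexp background correction it passed under both siRNAs, at 1.85 (adjusted p = 0.0214) and 1.65 (adjusted p = 0.0344). Under siControl it also passed without the HA22T siControl array numbered 2 alone (4.17, adjusted p = 0.0335) or the HA22T siGALNT1 array numbered 1 alone (3.11, adjusted p = 0.0396). Over all alternatives the adjusted p ran from 0.0214 to 0.528 and from 0.0344 to 0.595.

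The remaining members did not separate the lines. CXCL1 had group means of -0.35 to -0.06, CXCL2 of 1.95 to 2.27 and CXCL3 of -2.29 to -1.89, and the arrays of neighbouring groups overlapped for all 3. Their log2 differences between the lines were 0.15 and 0.29 for CXCL1, 0.13 and 0.32 for CXCL2, and 0.40 and -0.13 for CXCL3, with 95% intervals that held 0. The probes of CXCL1, CXCL2 and CXCL3 may each read some RNA of the others, since these genes are close copies. The dimmer CXCL1 probe, well above background on 3 of 12 arrays, was higher on all PLC5 siGALNT1 arrays than on all HA22T siGALNT1 arrays, at 1.06 (SE 0.42, adjusted p = 0.0858). LIF had means of -0.93 to -0.35 and differed by 0.36 and -0.30, with no passing test, and its dimmer probe by -0.20 and -0.67. IL1B was dim, with means of -4.67 to -3.79 and 2 of 3 arrays well above background in every group, and differed by -0.29 (95% interval -1.13 to 0.55) and -0.89 (95% interval -1.73 to -0.05, adjusted p = 0.108).

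The processing moved the median log2 difference of all probes. Between the lines it was -0.18 under siControl and -0.36 under siGALNT1 here, -0.07 and -0.14 with non-uniform spots kept, and -0.11 and -0.22 after quantile normalization, while the percentile over spots, median scaling and normexp moved it by less than 0.1. In the siRNA comparison of HA22T it was 0.06 here and -0.07 with non-uniform spots kept. The share of passing probes that were higher in PLC5 under siGALNT1 was 37.8% here, 54.6% with non-uniform spots kept and 27.8% after normexp background correction. The small difference of CXCL3 under siGALNT1 became 0.54 with non-uniform spots kept and 0.0056 with median scaling. Keeping those spots brings back the PLC5 siGALNT1 array left out here (2 arrays become 3). The differences of CCL20, CXCL5, IL6 and CCL2 kept their signs.

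The second question was whether GALNT1 knockdown moved these genes. No member passed the test in HA22T or in PLC5. Over all probes, limma passed 1 of 36327 (0.00275%) in HA22T, the dimmer probe of GALNT1, and 0 of 38070 (0%) in PLC5, so a count of 0 members lies at the background. At an unadjusted p below 0.05 there were 0 of 10 members in HA22T and 1 of 9 in PLC5, beside 1207 (3.32%) and 451 (1.18%) of all counted probes. The methods' t-test, at a fold of 1.5 and an unadjusted p below 0.05, took 0 members in either line, beside 2.06% and 0.876% of probes, and 0 members after adjustment. The median log2 difference was 0.15 over the members and 0.02 over all genes in HA22T, and -0.08 and 0.06 in PLC5.

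**Figure D3:**
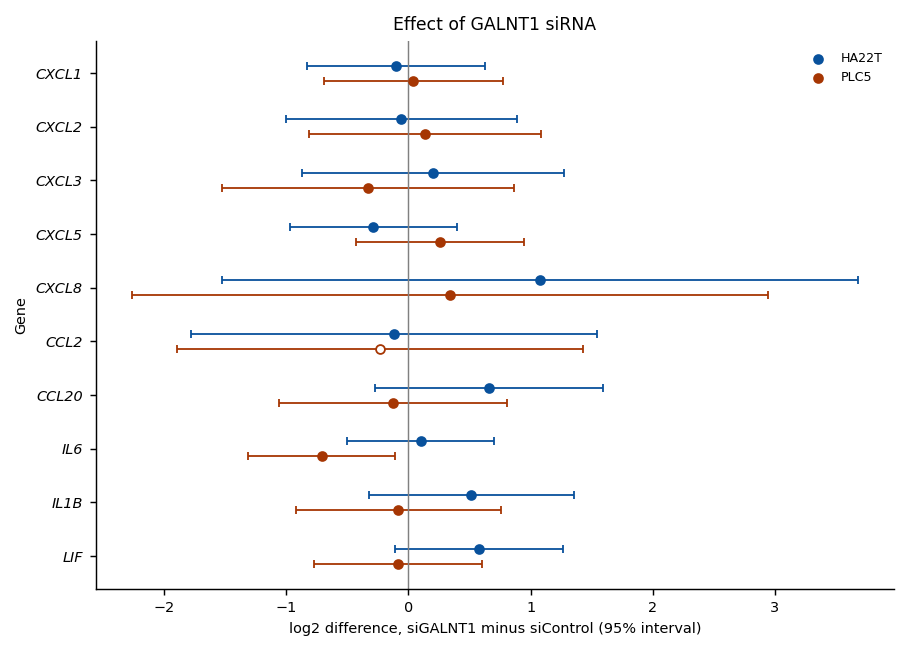
Fitted log2 difference, siGALNT1 minus siControl, of each gene (x axis) with its 95% interval in HA22T (blue) and PLC5 (brown); the open point marks CCL2 in PLC5, which was not well above background there. All intervals hold 0 except that of IL6 in PLC5, which runs from -1.31 to -0.11.

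Among the cytokines, IL6 in PLC5 had the lowest unadjusted p of the members in these comparisons. Its siGALNT1 arrays all lay below its siControl arrays, with a log2 difference of -0.71 (SE 0.27), an unadjusted p of 0.0248 and an adjusted p of 1 by limma, over a range of 0.998 to 1 among the alternatives. The value was lower in siGALNT1 at all 3 replicate numbers, by -0.82, -1.25 and -0.06, but whether the numbers pair the arrays in PLC5 is not known. After normexp background correction the difference was -0.29. An exact two-sided permutation test of 3 against 3 arrays cannot go below 0.1. In HA22T the IL6 difference was 0.10 (95% interval -0.50 to 0.70).

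LIF was -1.44, -0.61 and -0.73 in HA22T siControl and -0.64, -0.09 and -0.32 in HA22T siGALNT1. The groups overlapped by a narrow margin, and at each replicate number the siGALNT1 array was the higher. The log2 difference was 0.58 (SE 0.31, 95% interval -0.11 to 1.27, adjusted p = 1, limma), against 0.31 (SE 0.52) on its dimmer probe. In PLC5 the LIF difference was -0.09 (95% interval -0.77 to 0.60). IL1B was -4.76, -3.71 and -4.44 in HA22T siControl and -4.24, -3.05 and -4.07 in HA22T siGALNT1, higher at each number, with a log2 difference of 0.52 (SE 0.38, 95% interval -0.33 to 1.36). In PLC5 it was -0.08 (95% interval -0.92 to 0.76).

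Among the chemokines, the differences in HA22T were 1.08 for CXCL8 (95% interval -1.53 to 3.68), 0.66 for CCL20 (-0.28 to 1.59) and 0.20 for CXCL3 (-0.87 to 1.27). They were -0.29 for CXCL5 (-0.97 to 0.40), -0.12 for CCL2 (-1.78 to 1.54), -0.10 for CXCL1 (-0.83 to 0.63) and -0.06 for CXCL2 (-1.01 to 0.89). The HA22T arrays numbered 1 were the lowest for CXCL8 in both groups, and its difference was -0.33 without the siControl array of that number, 2.32 without the siGALNT1 array and 0.91 without both. It was higher in siGALNT1 at all 3 replicate numbers, by 1.41, 0.20 and 1.63 in HA22T and by 0.17, 0.60 and 0.26 in PLC5. Whether PLC5 arrays of the same number were pairs is not known, which also holds for CXCL5 below. In PLC5 the differences ran from -0.33 for CXCL3, with 2 siGALNT1 arrays, to 0.34 for CXCL8 (-2.26 to 2.94). CXCL5 was higher in siGALNT1 at all 3 replicate numbers in PLC5, by 0.29, 0.41 and 0.08, with a fitted difference of 0.26 (-0.43 to 0.94). CCL2 was not well above background on any PLC5 array and was not tested there. The second probes of CXCL1, CXCL2 and LIF had no passing test, and that of CXCL1 had the opposite sign in HA22T, at 0.16 while not well above background.

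The effect of siGALNT1 was not shown to differ between the lines for any member. The interaction term passed for 0 of 39100 probes (0%) and 0 of 10 members, and 995 probes (2.54%) but no member had an unadjusted p below 0.05. Only 9 members bear on it, since CCL2 has no measured siRNA effect in PLC5. The widest difference of differences, PLC5 minus HA22T, was -0.81 for IL6 (SE 0.39, unadjusted p = 0.0598), followed by -0.78 for CCL20 (SE 0.60), -0.74 for CXCL8 (SE 1.68), -0.66 for LIF (SE 0.44) and -0.60 for IL1B (SE 0.54).

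Across the 12 arrays, 5 members were well above background throughout and had a value on each, and their most similar genes were sought among 11853 such genes. CXCL5 ran most like MAGEA2B (Pearson r = 0.997), FST (0.996) and RTKN (0.996), and CCL20 most like AKIRIN1 (0.993), GCNT3 (0.992) and GCH1 (0.991). Both patterns are mainly the step between the lines, and within the 6 PLC5 arrays the r of CCL20 was 0.616, 0.807 and -0.154. CXCL2 ran most like IER2 (0.870), an immediate early gene, with 0.997 within HA22T and 0.842 within PLC5, then RHOB (0.844) and ERCC4 (0.813). CXCL1 ran most like NIT1 (0.930), TEAD2 (0.911) and PARD6A (0.852), and LIF most like DNAAF11 (0.935), FABP9 (0.914) and CDIPTOSP (0.911). These are descriptions over 12 arrays that share their lines, numbers and slides.

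The receptors and regulators of these cytokines were read from lists of named genes. In the siRNA comparisons none of them passed in either line, and the values given are the largest among counted probes. The receptor list had 1 of 10 counted genes with an unadjusted p below 0.05 in HA22T, beside 3.32% of all probes. It was IL1RAP, the accessory protein of the IL-1 receptor, at 1.01 (SE 0.42), with a value on 2 siControl arrays. The other large value of the list was -0.43 for CXCR1. Among other NF-κB targets in HA22T, CCL7 was at 1.29 (SE 0.69) and PTGS2, the inducible cyclooxygenase, at 0.91 (SE 0.30), with unadjusted p of 0.0862 and 0.0110. CCL7 was well above background on 1 of 3 siControl arrays, and PTGS2 on 2 of 3 siControl and 1 of 3 siGALNT1 arrays. For NF-κB subunits and inhibitors the largest were 0.67 for TNFAIP3 and 0.61 for BCL3. For STAT3 and the acute phase genes they were -0.77 for FGG and 0.74 for FGB, which encode fibrinogen chains. In innate sensing they were 0.81 for MYD88 and -0.48 for RIGI, which had values on 2 arrays in each HA22T group. In mRNA decay they were -0.42 for KHSRP and 0.35 for ZC3H12A, and in IL-1 processing -0.29 for GSDMD and -0.25 for CASP1. In PLC5 the largest were 1.02 for BIRC3 and 0.94 for IL11, 0.73 for LIFR and -0.48 for CCR6, and 0.55 for FGB and -0.43 for HP. They were 0.50 for MYD88 and -0.29 for MAVS, -0.38 for CASP1 and -0.24 for NLRP3, 0.28 for NFKBIE and -0.25 for REL, and 0.25 for ZC3H12A and 0.22 for ZFP36. IL11 was well above background on 1 of 3 PLC5 siControl and 2 of 3 PLC5 siGALNT1 arrays, and NLRP3 on 2 of 3 in both PLC5 groups.

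Between the lines, genes of every list passed the test, and values are the log2 differences, PLC5 minus HA22T, under siControl and then siGALNT1. The counts of each list stand beside the 28.1% and 29.3% of all genes that passed, and nothing particular to a list is read from them. Some groups had a measured level on only some arrays. These were 2 of 3 for LIFR and CASP1 in both PLC5 groups, FGB in both HA22T groups, MYD88 in PLC5 siGALNT1, PTGS2 and FGG in HA22T siControl, and OSMR and CXCR1 in HA22T siGALNT1. They were 1 of 3 for CXCL6 and LBP in both HA22T groups, PTGS2, FGG and REL in HA22T siGALNT1, and TLR3 and MYD88 in PLC5 siControl. Of 12 receptors, 11 were counted, with 4 higher and 4 lower in PLC5 under either siRNA and a median of -0.04 and -0.45. The chemokine receptors CCR6, which binds CCL20, and CXCR2 were higher in PLC5 (1.74 and 1.26, and 1.09 and 1.17), as was IL6R (1.62 and 1.48). The decoy receptor IL1R2 was at least 4.36-fold and 2.88-fold higher in PLC5, and CXCR1 at least 5.02-fold and 4.16-fold higher in HA22T. The signalling subunits LIFR (-3.06 and -2.61), IL6ST (-1.67 and -1.25) and OSMR (-0.81 and -0.90) were lower in PLC5. IL6 and its shared subunit IL6ST were both lower in PLC5, and IL6R was higher.

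**Figure D4:**
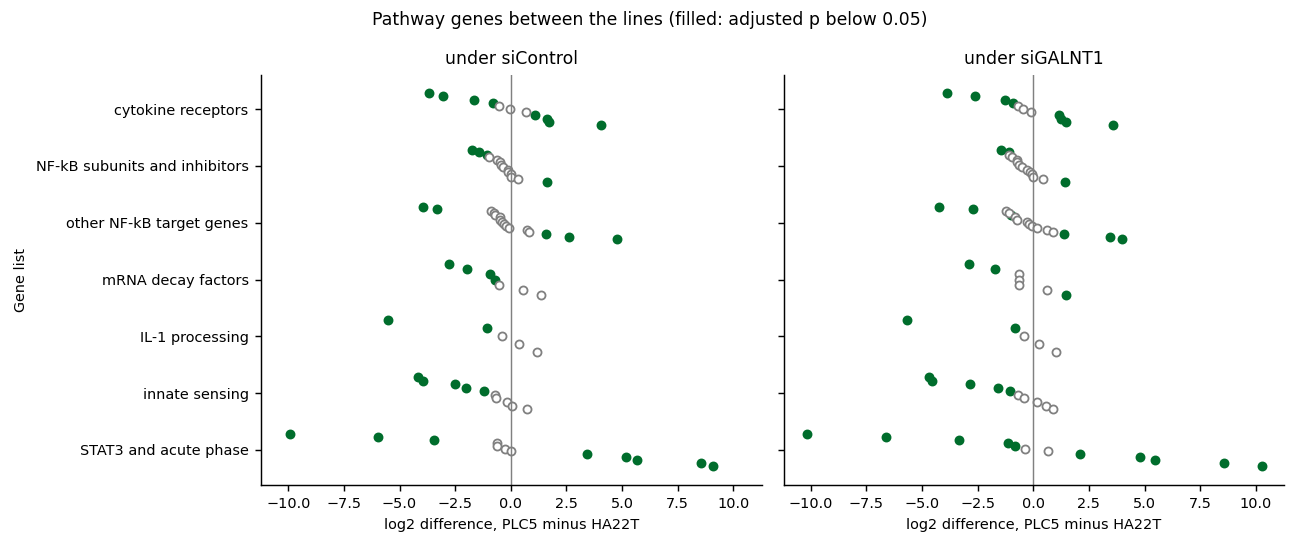
Log2 difference, PLC5 minus HA22T (x axis), of each counted gene in 7 lists of receptors and regulators (rows), under siControl (left) and siGALNT1 (right); filled points had an adjusted p below 0.05. Passing genes of receptors and acute phase genes lie on both sides of 0. Those of innate sensing and IL-1 processing lie below 0, as do those of mRNA decay under siControl. Among all passing probes, 5409 of 9185 were lower in PLC5 under siControl and 6269 of 10085 under siGALNT1, shares that changed with the processing.

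Of 15 NF-κB subunits and inhibitors, 14 had a probe, and 1 was higher and 3 lower in PLC5 under siControl, against 1 and 2 under siGALNT1, with a median of -0.40 and -0.58. REL was higher (1.61 and 1.43) and NFKBIZ, an atypical nuclear IκB protein, lower (-1.72 and -1.47), while IKBKG (-1.44) and NFKB1 (-1.05) passed under siControl and NFKBIE (-1.10) under siGALNT1. Of 19 other NF-κB targets, 16 were counted, with 3 higher and 2 lower under siControl and 3 and 3 under siGALNT1, and a median of -0.36 and -0.25. PTGS2 (4.76 and 3.98), CXCL6 (2.59 and 3.46), a chemokine close to CXCL5, and IL32 (1.58 and 1.37) were higher in PLC5. CSF1 (-3.92 and -4.25), a macrophage growth factor, CCL5 (-3.33 and -2.70) and, under siGALNT1, CCL4 (-1.01) were lower. NF-κB targets that passed stood on either side, as the members did.

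In the STAT3 and acute phase list, 5 of 12 counted genes were higher and 3 lower in PLC5 under siControl, and 5 and 5 under siGALNT1, with a median of -0.12 and 0.16. FGG (9.06 and 10.26), FGA (8.53 and 8.56), FGB (5.65 and 5.46), ORM1 (5.17 and 4.78) and LBP (3.42 and 2.12) were higher in PLC5. SAA1 was at least 437-fold and 452-fold higher in HA22T and SAA2 at least 20.2-fold and 22.5-fold, although these close copies may share signal. SOCS3, a feedback inhibitor induced by STAT3, was lower in PLC5 (-3.45 and -3.34). Passing genes of this list thus stood on either side, and their relation to IL6 was not tested. In innate sensing, 0 of 10 counted genes were higher and 5 lower under either siRNA, with a median of -0.97 and -0.87. They were the receptors TLR4 (-4.19 and -4.57) and TLR3 (-3.93, and at least 9.52-fold higher in HA22T under siGALNT1), the adaptor MYD88 (-2.52 and -2.82), IFIH1 (-2.03 and -1.59) and EIF2AK2 (-1.22 and -1.03). In IL-1 processing, CASP1, which cuts the IL1B precursor, was lower in PLC5 (-5.53 and -5.66), as was GSDMD (-1.06 and -0.82), 2 of 5 genes, with a median of -0.39 and -0.42. Of 7 mRNA decay factors, 0 were higher and 4 lower under siControl and 1 and 2 under siGALNT1, with a median of -0.72 and -0.65. ZFP36L1 (-2.78 and -2.87) and KHSRP (-1.96 and -1.71) were lower in both comparisons, HNRNPD (-0.92) and ELAVL1 (-0.72) under siControl, and ZFP36, which promotes decay of cytokine mRNA, was higher under siGALNT1 (1.49).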

How the data were processed

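Total RNA of 12 samples was labeled as cDNA and hybridized to Agilent SurePrint G3 arrays, and the authors scanned them in one color and analyzed the images with Agilent Feature Extraction 10.5.1.1. The deposited intensity values are the background-subtracted processed signal with flags per spot. The authors also deposited a log2 table per probe, used as an alternative. It matched the processed signal scaled to the 75th percentile over probes, with non-uniform spots kept, for probes with a single spot, while some probes with several spots, CCL2's among them, differed. Because the array was designed on an earlier build, gene positions were not used, and promoter windows came from RefSeq (GRCh38.p14).

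Control spots were dropped, as were spots flagged as non-uniform, the log2 signal of spots of a probe was averaged, and each array was scaled to its 75th percentile over probes. The percentile over spots was computed first, and the one over probes was adopted after the results of both had been seen, so that probes with many spots do not weigh more and because the deposited table is scaled so. Probes were named through RefSeq transcripts, and 28174 of 50599 matched. The 4 groups were fitted together with limma 3.58.1 (lmFit, eBayes) in R 4.3.3, without covariates, and Benjamini-Hochberg adjustment was over counted probes, which needed 3 or more of the 6 arrays of a line well above background (of either line for comparisons that involve both). The script was tested on simulated data. For bounds, the dim group was set at the lowest signal well above background on each array, or its own if higher. Such bounds hold for this processing only. The number of arrays, 3 per group, limits the precision. Figures were drawn with matplotlib in Python.

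Genes were named by rule, as all members, GALNT1 and, of each further list, at most 6 passing genes by size or otherwise the 2 largest. CXCR2, OSMR, LBP and SOCS3 lie outside this rule and were chosen after their values were seen. NFKB2, LYZ and COL1A1 had no usable probe. The members, lists and tests were chosen with earlier results of these data known. Alternatives were background correction, scaling, the deposited table, filters, slide, replicate number, test, probes and arrays left out. Whether arrays of the same replicate number were pairs is not known, so their departures from group means were correlated. The correlations were 0.55, 0.403 and 0.43 in HA22T and 0.706, -0.0232 and 0.164 in PLC5. By values alone, the numbers were taken to pair the arrays in HA22T. In PLC5 the values did not show pairing at every number, which leaves it undecided.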

Additional observations from a re-analysis of the deposited data

How the results depend on the processing

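The 4 member genes that differed between the lines passed under every alternative run, and no alternative passed a member for siGALNT1 in either line or for the interaction. With the replicate block, which leaves no line comparison, 0 probes and 0 members passed in HA22T, in PLC5 and for the interaction, and the block changed no call of a member. The single probe called in HA22T, GALNT1, became 2 probes after normexp and 0 without a filter on dim probes, with all 6 arrays required, with slide or replicate number as a block, with only the groups compared, by the methods' t-test and on slide 1 alone, and ran from 0 to 2 with an array left out. In PLC5, normexp called 2 probes. Between the lines under siGALNT1, 5622 probes passed with only the groups compared, 4307 by the methods' t-test, 2995 on slide 1 alone and from 6357 (without PLC5 siGALNT1 replicate 2) to 10584 with an array left out. Under siControl, 2958 passed on slide 1 alone. The percentile over spots, the split by slide and leaving out both HA22T arrays numbered 1 were chosen after seeing the data. With the percentile over spots, 1, 0, 0, 9107 and 9901 probes and 0, 0, 0, 4 and 4 members passed. CXCL8 between the lines under siControl also passed without HA22T siGALNT1 replicate 1 or without HA22T siControl replicate 2, where differences with an array left out ran from 1.70 to 4.17.

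Of 600 member differences in other settings 24 changed sign, and of 600 with an array left out 48, none of them a passing one; the causes were not tested. For siGALNT1 in HA22T, CXCL3 became -0.019 after normexp and -0.0040 without the arrays numbered 1, IL6 -0.033 in the deposited table and -0.033 with non-uniform spots kept, CCL2 0.056 without the arrays numbered 1, and CXCL1 0.031 as a mean over probes. In PLC5, normexp gave 0.15 for CCL2 and 0.076 for IL1B, CXCL3 was 0.089 in the deposited table and 0.089 with non-uniform spots kept, and CCL20 was 0.076 on slide 2 alone. For the interaction, CCL2 was 0.19 after normexp, 0.19 in the deposited table and 0.0053 with non-uniform spots kept, and CXCL3 0.022 and 0.021 in the latter. Between the lines, CXCL3 under siGALNT1 was 0.013 after normexp, 0.0056 with median scaling and 0.54 in the deposited table and with non-uniform spots kept. Under siControl it was -0.31 with slide as a block and -0.45 on slide 1 alone, and without the arrays numbered 1 CXCL1 was -0.071 and CXCL2 -0.10.

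With an array left out, values for siGALNT1 in HA22T ran from -0.32 to 0.065 for CXCL1, -0.41 to 0.38 for CXCL2, -0.15 to 0.54 for CXCL3, -0.33 to 2.32 for CXCL8, -0.60 to 0.54 for CCL2 and -0.044 to 0.19 for IL6. In PLC5 they ran from -0.17 to 0.28 for CXCL1, -0.15 to 0.29 for CXCL2, -0.75 to 0.11 for CXCL3, -0.89 to 0.46 for CCL2, -0.33 to 0.12 for CCL20, -0.30 to 0.053 for IL1B and -0.29 to 0.083 for LIF. For the interaction they ran from -0.066 to 0.39 for CXCL1, -0.25 to 0.55 for CXCL2, -1.98 to 0.67 for CXCL8 and -0.77 to 0.57 for CCL2. Between the lines they ran from -0.10 to 0.35 for CXCL1, -0.10 to 0.57 for CXCL2, -0.037 to 0.82 for CXCL3 and -0.52 to 0.0069 for IL1B under siControl, and from -0.52 to 0.26 for CXCL3 under siGALNT1. Dim signals limit IL1B, CXCL8 in HA22T and CCL2 and IL6 in PLC5.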
